A study of Mus musculus with 2 samples.

Results

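Neutrophils of the nephritic kidney were described from 682 of 7314 single cells, namely every cell that the authors had placed in the cluster named Neutrophil. Of these, 524 belonged to the WT library of 5470 cells and 158 to the Vsir-/- library of 1844 cells. The mice were C57BL/6 and 8 weeks old, and both groups carried nephrotoxic serum nephritis (NTN), in which 200 μg of sheep IgG in complete Freund's adjuvant is followed 4 days later by an intravenous dose of sheep serum against the glomerulus. The serum dose in the labels was 2 μL/g, and the methods of the study state another dose. Vsir-/- mice lack Vsir, the gene of the inhibitory receptor VISTA, and the control was WT. Kidneys were digested with liberase (0.2 mg/mL, 37 °C, 30 minutes). Each genotype was 1 droplet-based library read at the 3′ end of transcripts, and the number of mice behind a library is not given in the sources used here. There were thus no replicates, no test between the genotypes was made, and every interval below covers counting error at the 95% level only.

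Neutrophils are short-lived phagocytes that arise in the bone marrow, where granule proteins are made in successive waves: azurophil granules in promyelocytes, specific granules in myelocytes and metamyelocytes, and gelatinase granules in the last stages. Mature cells leave for the blood under control of the receptors CXCR2 and CXCR4, and in the tissue they release chemokines and IL-1β and respond to interferons. In immune complex nephritis they are among the first leukocytes to enter the glomerulus, drawn by complement fragments, chemokines, and Fc receptors.

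The libraries differed in more than the genotype, and these differences stand before the results. According to the labels, the WT library held sorted CD45+ cells and the Vsir-/- library all kinds of kidney cells, whereas the methods of the study describe a CD45+ sort. Xist, the transcript of the inactive X chromosome, had 0 UMIs in the whole WT library and 236 UMIs in Vsir-/- neutrophils, while the Y-linked genes Ddx3y, Eif2s3y, Kdm5d, and Uty had 183, 142, 21, and 25 UMIs in WT neutrophils and 0 UMIs in the whole Vsir-/- library. The methods state that all mice were male. The sets of gene symbols also differed, with 1053 features that had UMIs in the WT library alone and 4827 in the Vsir-/- library alone, and 134 pairs of older and newer symbols were joined. Of the 7176 genes with at least 20 UMIs in neutrophils, 96 had no UMI in the whole WT library and 42 none in the whole Vsir-/- library. The libraries shared 5 cell barcodes, and 1 of these belonged to a neutrophil in both. The effects of genotype, sex, sort, and gene annotation cannot be told apart here.

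The 6 genes that mark neutrophils (S100a8, S100a9, Retnlg, Csf3r, Cxcr2, and Mmp9) fit the name of the cluster. S100a8 and S100a9 encode the subunits of calprotectin, Retnlg a resistin-like protein, Csf3r the G-CSF receptor, Cxcr2 the receptor for CXC chemokines, and Mmp9 gelatinase B. Levels are given as CPM, the UMIs (distinct captured transcripts) of a gene per 1000000 UMIs of the same cells. S100a8 had 121607 CPM in WT and 119598 CPM in Vsir-/- neutrophils, and the next highest cluster with at least 20 cells, WT M2-like R2 macrophages, had 2204 CPM. Csf3r stood at 1089 CPM in WT and 753 CPM in Vsir-/- neutrophils, against 116 CPM in the next cluster, again WT M2-like R2 macrophages. Cxcr2 stood at 961 and 658 CPM, and the next cluster was the 25 WT basophils with 275 CPM. Every neutrophil had UMIs of at least 3 of the 6 markers, and 423 WT and 118 Vsir-/- cells had all 6. These genes define the cluster, so their levels describe it and support nothing more.

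**Figure D1:**
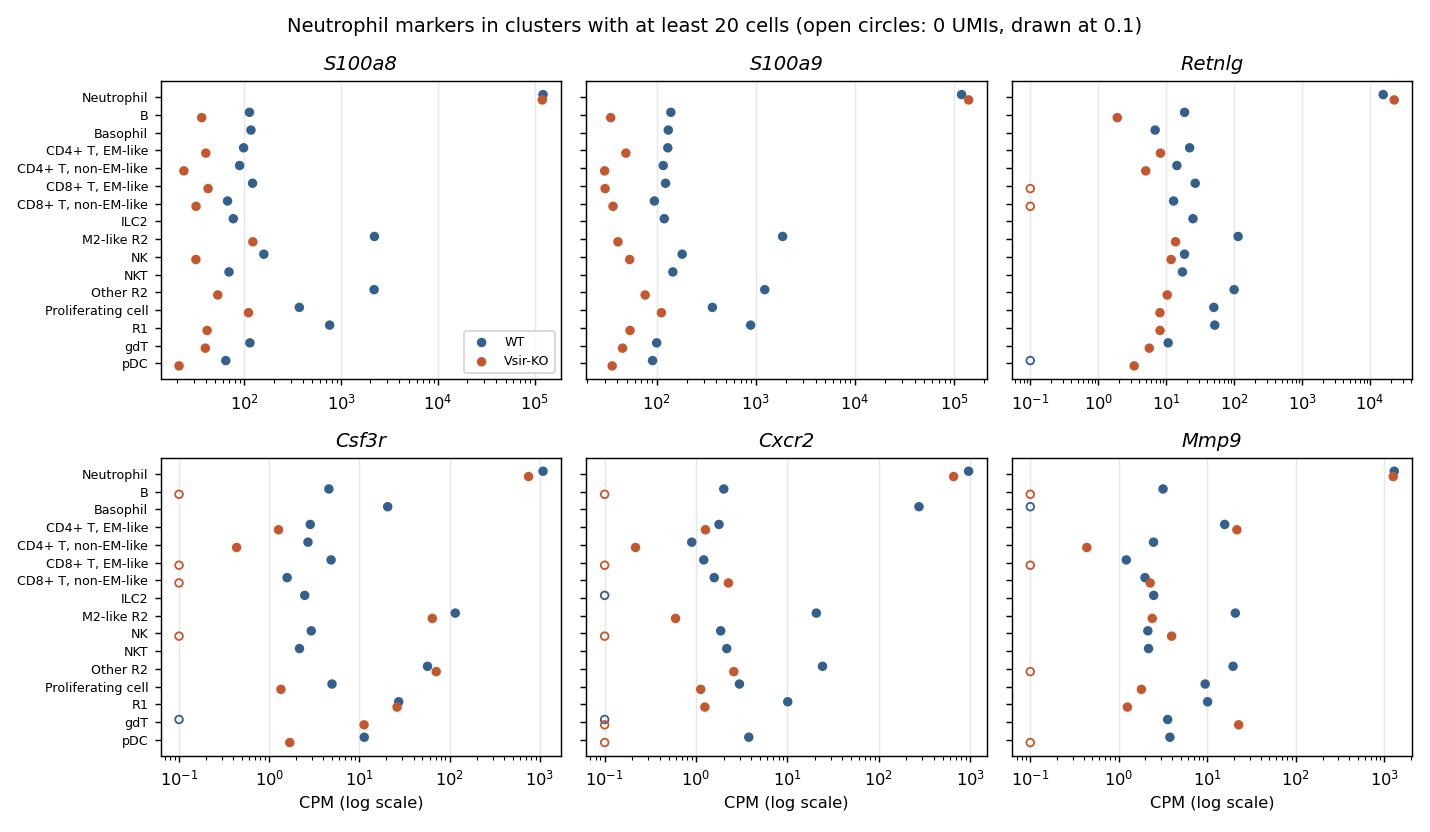
Level of 6 neutrophil markers (CPM, log axis) in every cluster with at least 20 cells, with 1 point per cluster and library (WT blue, Vsir-/- orange, labelled Vsir-KO; open circles stand for 0 UMIs). For all 6 genes both points of the Neutrophil row lie to the right of every other cluster, for example 1291 and 1257 CPM for Mmp9.

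In the WT library, 9.58% of all cells were neutrophils (interval 8.81–10.4%). In the Vsir-/- library the share was 8.57% (interval 7.33–9.94%). The order turned when only cells with a UMI of Ptprc, the gene of CD45, were counted, with 9.88% (interval 9.07–10.7%) in WT and 11.3% (interval 9.70–13.1%) in Vsir-/- kidneys. Both pairs of intervals overlap. WT neutrophils held 2480984 UMIs with a median of 3565 UMIs and 1090.5 genes per cell, and Vsir-/- neutrophils held 777011 UMIs with a median of 4097 UMIs and 1258.5 genes. Mitochondrial UMIs took a median of 0.439% of the UMIs of a WT neutrophil and 1.86% of those of a Vsir-/- neutrophil. All other clusters together had medians of 3.24% and 3.44%.

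Vsir, the targeted gene, had 698 UMIs in WT neutrophils (281 CPM, interval 261–303) and 0 UMIs in Vsir-/- neutrophils. Against a floor of 3 UMIs for a count of 0 (3.86 CPM), its level was at least 72.9-fold lower than the WT value, and the two-sided interval of the log2 ratio ended at −5.89. WT neutrophils thus carried more Vsir transcript per UMI than the rest of their library (118 CPM), and WT B cells had 19.2 CPM. Selplg, which encodes the selectin ligand PSGL-1, a reported partner of VISTA, had 701 CPM in WT (interval 668–734) and 465 CPM in Vsir-/- neutrophils (interval 418–515), a log2 ratio of Vsir-/- over WT of −0.59 (interval −0.76 to −0.43). The ratio was also below 0 outside the cluster, at 390 and 144 CPM.

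Neutrophil profiles held transcripts of other cells, and these differed between the libraries. The 6 genes of the T cell list summed to 451 CPM in WT and 55.3 CPM in Vsir-/- neutrophils, with Trbc2 (128 CPM) and Trbc1 (20.6 CPM) as the most abundant genes and no gene at 0. The 7 genes of the B cell list summed to 741 and 63.1 CPM, led by Igkc (344 CPM) and Ighm (42.5 CPM), and the markers Cd79b and Ms4a1 were at 0 in Vsir-/- neutrophils. The 7 genes of the NK cell list summed to 418 and 12.9 CPM, led by Gzma (236 CPM) and Nkg7 (6.43 CPM), with Klrb1c, Gzmb, and Prf1 at 0 in Vsir-/- neutrophils. Transcripts of lymphocytes were thus more abundant among WT neutrophils.

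In the opposite direction, the 15 genes of the kidney tubule list summed to 16.5 CPM in WT, where 9 of them were at 0, and 3296 CPM in Vsir-/- neutrophils, where Gpx3 (865 CPM) led. The 6 genes of the endothelium list summed to 15.7 CPM (all from Pecam1, with the other 5 at 0) and 269 CPM, led by Emcn (63.1 CPM). The 8 genes of the macrophage list summed to 478 and 336 CPM, led by Apoe in both, and the 7 genes of the monocyte list to 1320 and 992 CPM, led by Ly6c2. The MHC class II and dendritic cell list summed to 1481 and 853 CPM, led by Cd74. Eosinophil (39.9 and 14.2 CPM), platelet (6.05 and 2.57 CPM), erythroid (0.806 and 14.2 CPM), and mast cell and basophil transcripts (1 and 0 UMIs) were low in both. Their part in the results below was not tested.

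How far single cells held these transcripts differed by list and library. In WT mice, 35 neutrophils with at least 10 T cell UMIs held 86.0% of the T cell UMIs, and 19 neutrophils with at least 10 B cell UMIs held 85.0% of the B cell UMIs. These cells were deep, with medians of 9355 and 8219 UMIs. In Vsir-/- mice, 73 of 158 neutrophils had at least 10 tubule UMIs (76.7% of the total) at a median of 4633 UMIs per cell, and every Vsir-/- neutrophil had at least 1. Macrophage and monocyte transcripts were more spread over the Vsir-/- neutrophils. There, the 5 cells with at least 10 macrophage UMIs held 23.4% of the macrophage UMIs. The 25 with at least 10 monocyte UMIs held 46.3% of the monocyte UMIs, and 0 cells had 10 UMIs of the B cell or NK cell list. In contrast to macrophage and monocyte transcripts, 1 Vsir-/- cell held 83.7% of the 43 T cell UMIs, and 4 cells held 75.1% of the endothelium UMIs. Counting T cell, B cell, NK cell, macrophage, tubule, and endothelium lists together, 69 WT and 74 Vsir-/- neutrophils had at least 10 UMIs of 1 of them. Any removal of doublets is not given in the sources used here.

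Of the 7176 genes tested, 696 (9.7%) were at least 2-fold higher and 711 (9.91%) at least 2-fold lower in Vsir-/- neutrophils, with a median log2 ratio over all genes of −0.05. This balance depended on the cells and the filter. Without cells that held T or B cell UMIs, 559 genes were higher and 281 lower of 4612 tested. With at least 100 UMIs, 122 were higher and 194 lower of 3091. The removal of cells with T or B cell UMIs kept 260 of 524 WT and 120 of 158 Vsir-/- neutrophils, because 1 such UMI was enough to drop a cell. Many of the lowest ratios belonged to genes of other cells. Among genes with at least 100 UMIs and at least 4 in each library, the 12 lowest ratios were those of Igkc, Ccl5, Trbc2, Ms4a6b, Nkg7, Ptprcap, Cd3d, Ly6d, Cd3g, Cd3e, Pou2f2, and Gimap4, between −4.67 and −2.69. Most of these are known from T, B, or NK cells, and Nkg7 (−0.73), Pou2f2 (−0.72), Gimap4 (−0.67), and Cd3g (−0.45) were no longer 2-fold lower without the cells with 10 UMIs of another cell list. The 12 highest ratios were those of Atp6v0c, Spp1, Ldhb, Rnasek, Gatm, Chpt1, Atp1b1, Chchd10, Ass1, Tomm6, Dbi, and Oxct1, between 7.60 and 2.83. Spp1, the gene of osteopontin, had 9.27 CPM in WT and 798 CPM in Vsir-/- neutrophils, and 11.8 and 2399 CPM in the cells outside the cluster. Atp6v0c, a subunit of the vacuolar proton pump, had 2.82 and 584 CPM in neutrophils and 4.45 and 589 CPM outside. Both differences were thus present in the whole libraries. Rnasek (94 UMIs in the whole WT and 5672 in the whole Vsir-/- library) and Tomm6 (795 and 4983 UMIs) were also sparse in the whole WT library. The part of gene annotation in these ratios was not tested.

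Genes closer to the neutrophil were the 715 with at least 100 UMIs whose level, in the library where neutrophils had more of it, was at least 2-fold that of all other cells of that library. A gene could thus enter through the library in which it was high, as Ifit3 and Trim30d did through WT and Zfyve26 and Suco through Vsir-/- cells, and the ratios below are a description. The lowest were −2.39 for Cxcl3, a chemokine that binds CXCR2, −2.22 for Stfa1 and −2.14 for Stfa2, both stefins, and −1.94 for Rnf149, a ubiquitin ligase. They were followed by Wfdc17 (−1.87), C5ar2 (−1.79), the second receptor for the complement fragment C5a, Trim30d (−1.75), Prok2 (−1.72), which encodes a prokineticin, Steap4 (−1.68), a metalloreductase, Igfbp6 (−1.57), Ifit3 (−1.54), and Ifit1 (−1.51). Outside the cluster, where no minimum of UMIs was applied, 3 of these 12 genes (Stfa1, Rnf149, and Prok2) were at least 2-fold lower, and Cxcl3 was at least 2-fold higher. Rnf149 had 85.4 and 26.6 CPM there. Stfa1 (1.65 and 0.056 CPM), Prok2 (0.46 and 0.11 CPM), and Cxcl3 (0.82 and 2.02 CPM) were near 0 in those cells, so their ratios there say little. A single WT cell held 77 of the 405 WT UMIs of Prok2, and its ratio was −0.66 with every cell thinned to 1000 UMIs. Few cells held the stefins, with Stfa1 in 12.4% of WT and 5.70% of Vsir-/- neutrophils and Stfa2 in 5.34% and 3.80%. For Stfa1, 1 Vsir-/- cell held 24 of 81 UMIs. Over the alternatives, Cxcl3 ranged from −4.18 to −1.77 and Stfa2 from −2.81 to −1.22. C5ar2, Trim30d, Steap4, and Igfbp6 reached −2.86, −2.60, −2.36, and −2.58, so the order of these genes depended on the processing. C5ar2 had 77.8 CPM in WT and 21.9 CPM in Vsir-/- neutrophils, against 2.21 and 2.52 CPM in other cells.

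The highest ratios among these genes were 2.20 for Cmtr1, an mRNA cap methyltransferase, 2.01 for Mmp25, a membrane-bound metalloproteinase of neutrophils, 2.00 for the keratin gene Krt83, 1.62 for Lilrb4a, an inhibitory receptor, and 1.49 for Thbs1, which encodes thrombospondin-1. Basp1 (1.30), Slc25a33 (1.13), Ccpg1 (1.12), Mirt1 (1.07), Suco (1.04), Cpne2 (0.98), and Zfyve26 (0.97) followed. Under some alternatives Basp1, Slc25a33, Ccpg1, Suco, and Thbs1 were less than 2-fold higher, down to 0.92, 0.56, 0.81, 0.31, and 0.98. Of these 12 genes, 7 were at least 2-fold higher and 1 (Mirt1) at least 2-fold lower in the cells outside the cluster, which hold a different mixture of cells in each library. Lilrb4a, for example, had 130 CPM in WT and 402 CPM in Vsir-/- neutrophils, and 15.8 and 69.6 CPM in other cells. Slc25a33, a mitochondrial nucleotide carrier, had 39.5 and 86.2 CPM in neutrophils and 8.25 and 8.08 CPM in other cells.

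**Figure D2:**
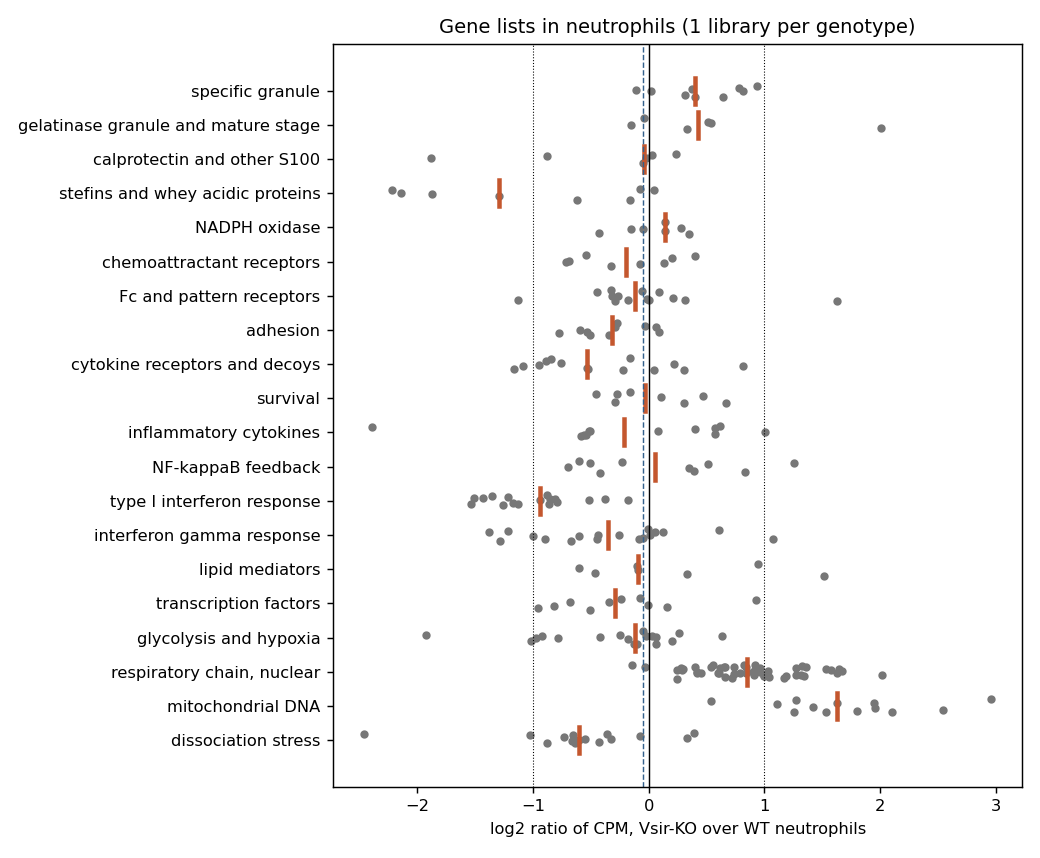
Log2 ratio of CPM in Vsir-/- over WT neutrophils for the genes of 20 lists (1 grey point per gene with at least 20 UMIs, genes at 0 in 1 library not drawn; orange bars are list medians over all tested genes). The dashed blue line marks the median of all genes and the dotted lines a 2-fold difference. The type I interferon list lies wholly below 0, and the mitochondrial list wholly above it.

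Calprotectin was the dominant product of these cells. S100a8 and S100a9 together took 24.1% of the UMIs of WT and 26.0% of the UMIs of Vsir-/- neutrophils. Per cell the share ranged from 0.0349% to 47.6% with a median of 23.0% in WT and from 0% to 43.5% with a median of 25.2% in Vsir-/- mice. The share was below 10% in 69 of 524 WT and 20 of 158 Vsir-/- neutrophils. S100a9 had a log2 ratio of 0.24 (interval 0.23–0.25) and S100a8 of −0.02 (interval −0.03 to −0.01). Of the list of 6 S100 genes, 1 (S100a4, at 154 and 41.2 CPM) was at least 2-fold lower (9.91% of all genes were), and a single WT cell held 84 of its 382 UMIs. Without cells that held T or B cell UMIs, its ratio turned from −1.88 to 1.03.

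Transcripts of azurophil granules were nearly absent. Of the 5 measured list genes, Elane and Ctsg had 0 UMIs in the neutrophils of both libraries, Mpo, the gene of myeloperoxidase, had 4 and 0 UMIs, and the list summed to 17 UMIs in WT and 4 UMIs in Vsir-/- neutrophils. Specific granule transcripts were more abundant in Vsir-/- neutrophils. The 9 genes summed to 16888 CPM in WT and 25248 CPM in Vsir-/- neutrophils, and the median was 0.40. A ratio above 0 was found for 8 of the 9 (46.5% of all genes), and 0 passed 2-fold (9.7% of all genes were higher and 9.91% lower). Camp, the cathelicidin gene, had 2805 CPM in WT (interval 2739–2871) and 5372 CPM in Vsir-/- neutrophils (interval 5210–5537), a log2 ratio of 0.94 (interval 0.88–0.99). Ltf, which encodes lactoferrin, had 1347 and 2371 CPM with a ratio of 0.82, Ngp, neutrophilic granule protein, had 5100 and 7956 CPM with a ratio of 0.64, and Chil3 had 289 and 494 CPM with a ratio of 0.78, but without the granule-rich cells described further on the ratios of Camp, Ltf, and Chil3 turned to −0.14, −0.17, and −1.67. Lcn2, the iron-scavenging lipocalin, had 4080 and 5401 CPM. Hp, the haptoglobin gene, had 1771 and 1794 CPM, and its interval of the ratio (−0.07 to 0.11) spans 0. As in any comparison of transcript shares, these sums cannot tell more cells of a kind from more RNA per cell. The per-cell account further on uses a limit drawn on this same list, so it does not decide this either.

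In the gelatinase granule and mature stage list, 4 of 6 genes had a ratio above 0 (46.5% of all genes did) and the median was 0.42. Retnlg had 15591 CPM in WT and 22673 CPM in Vsir-/- neutrophils (ratio 0.54, interval 0.51–0.57) and Lyz2, lysozyme, had 4619 and 6596 CPM (0.51). Mmp25 had 29.4 CPM (interval 23.1–37.0) and 118 CPM (interval 95.4–145). Mmp9 was close in both, with a ratio of −0.04 (interval −0.14 to 0.07). The NADPH oxidase, which makes the superoxide of the respiratory burst, had a median of 0.14 over 7 genes. None of them passed 2-fold, where 9.7% of all genes were higher and 9.91% lower. Cybb, its catalytic subunit, had 392 and 499 CPM.

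Stefins are cytosolic inhibitors of cysteine proteases that mouse neutrophils make from a cluster of near-identical genes, and whey acidic proteins such as Slpi inhibit serine proteases. Of the 9 genes of this list, 5 were at least 2-fold lower in Vsir-/- neutrophils against 9.91% of all genes, and the median was −1.29, or −2.25 without cells that held T or B cell UMIs. Wfdc17 had 3618 CPM (interval 3543–3693) in WT and 986 CPM (interval 917–1058) in Vsir-/- neutrophils. Stfa1 had 490 and 104 CPM, from 12.4% of WT and 5.70% of Vsir-/- neutrophils. Slpi (2356 and 2242 CPM) and Wfdc21 (3233 and 3340 CPM) were close in both. BC100530 had 578 UMIs in WT neutrophils and 0 UMIs in the whole Vsir-/- library, and without it 4 genes passed 2-fold and the median was −0.95. With the symbols as deposited, before older and newer names were joined, the median was −1.87. How reads were assigned among these near-identical copies was not tested. Summed over 8 stefin features, the level came to 3767 CPM in WT and 1737 CPM in Vsir-/- neutrophils, a log2 ratio of −1.12 (interval −1.20 to −1.03).

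By their medians, receptors that guide and arm neutrophils differed less. Of 8 chemoattractant receptors none passed 2-fold (9.7% of all genes were higher and 9.91% lower), with a median of −0.20. Cxcr2 had a log2 ratio of −0.55 (interval −0.69 to −0.41), Cxcr4, which retains neutrophils in the marrow, of −0.71 (268 and 163 CPM), and Ccr1 of −0.69 (696 and 431 CPM), whereas the formyl peptide receptor gene Fpr1 had a ratio of 0.40 (160 and 210 CPM). Of the 14 Fc and pattern receptor genes, Lilrb4a was at least 2-fold higher and Tlr4 (66 and 9 UMIs) at least 2-fold lower, no more than the 9.7% and 9.91% of all genes, with a median of −0.12. The activating Fcγ receptor genes Fcgr3 (430 and 344 CPM) and Fcgr4 (166 and 138 CPM) and their signaling chain Fcer1g (2077 and 2051 CPM) had ratios between −0.32 and −0.02. Among 10 adhesion genes, 8 were below 0 against 53.5% of all genes, and the median was −0.32. None of these 10 passed 2-fold, against the same 9.7% and 9.91% of all genes.

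Receptors for cytokines had a lower median of −0.53 over 14 genes, 10 of them below 0 (53.5% of all genes were). Il4ra, the receptor chain for IL-4 and IL-13, had 122 CPM in WT (interval 109–137) and 54.1 CPM in Vsir-/- neutrophils (interval 39.0–73.1), and Il6ra had 108 and 50.2 CPM. Both passed 2-fold, near the 9.91% of all genes, but not without the cells with 10 UMIs of another cell list, where their ratios were −0.78 and −0.84 and the median of the list −0.35. Il17ra had a ratio of −0.89, Csf2rb of −0.84, Csf3r of −0.53, and the interferon-γ receptor genes Ifngr1 and Ifngr2 of −0.76 and −0.94. Ifnar2, a chain of the type I interferon receptor, had the highest ratio of the list, 0.81 (66.1 and 116 CPM), and Ifnar1 had 45.1 and 39.9 CPM.

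Inflammatory cytokines had no common direction. Of the 12 genes tested, 6 had a ratio above 0 and 6 below (46.5% and 53.5% of all genes), 1 each was at least 2-fold higher and lower (9.7% and 9.91% of all genes), with a median of −0.21, or −0.74 without cells that held T or B cell UMIs. Il1b, the most abundant, had 6436 CPM in WT (interval 6336–6536) and 4372 CPM in Vsir-/- neutrophils (interval 4226–4521), a log2 ratio of −0.56 (interval −0.61 to −0.50). Cxcl2, a neutrophil chemoattractant, had 4384 and 3066 CPM (−0.52), Osm, oncostatin M, had 380 and 261 CPM (−0.54), and Cxcl3 had 77.4 and 14.2 CPM. Ccl6 (1167 and 1544 CPM), Ccl4 (168 and 257 CPM), and Tnf (45.9 and 68.2 CPM) lay on the other side, and Vegfa (22.6 and 45.0 CPM) was 2-fold higher. Genes of NF-κB feedback had a median of 0.06 over 10 genes. Nfkbia, which encodes the inhibitor IκBα, had 1080 and 1921 CPM (0.83, interval 0.74–0.92) and Sod2, mitochondrial superoxide dismutase, had 51.2 and 122 CPM (1.26). In the lipid mediator list of 7 tested genes, Ptgs2 had 356 and 234 CPM and Ptgs1, on 19 and 17 UMIs, was the 1 gene at least 2-fold higher (9.7% of all genes were).

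Type I interferon response genes were lower in Vsir-/- neutrophils as a whole list. All 17 genes had a log2 ratio below 0, as 53.5% of all genes did, 8 of them were at least 2-fold lower against 9.91% of all genes, and the median was −0.94. Ifit1 and Ifit3, which encode proteins that bind foreign RNA or assemble with those that do, had 453 CPM (interval 427–480) and 361 CPM (interval 337–385) in WT and 158 CPM (interval 132–189) and 124 CPM (interval 100–151) in Vsir-/- neutrophils. Their ratios were −1.51 (interval −1.80 to −1.25) and −1.54 (interval −1.86 to −1.24). Slfn5 (−1.44), Ifit3b (−1.36), Usp18 (−1.26), Slfn4 (−1.22), Oasl1 (−1.18), and Irf7 (−1.13) were the other genes past 2-fold. In cells thinned to 1000 UMIs, Oasl1 (−0.76) and Irf7 (−0.97) were below it. Rsad2, at −0.52 in all neutrophils, was at −1.11 in the thinned cells and at −1.15 without cells with 10 UMIs of other cell lists. Slfn4, a schlafen gene of myeloid cells, had 846 and 363 CPM in neutrophils and 16.8 and 2.24 CPM in the other cells. Irf7, the transcription factor that amplifies the response, had 328 and 149 CPM. Isg15, a ubiquitin-like modifier, had 1041 CPM (interval 1001–1082) and 593 CPM (interval 540–650), a ratio of −0.81. The membrane proteins of the Ifitm family ranged from −0.86 for Ifitm1 to −0.18 for Ifitm2.

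**Figure D3:**
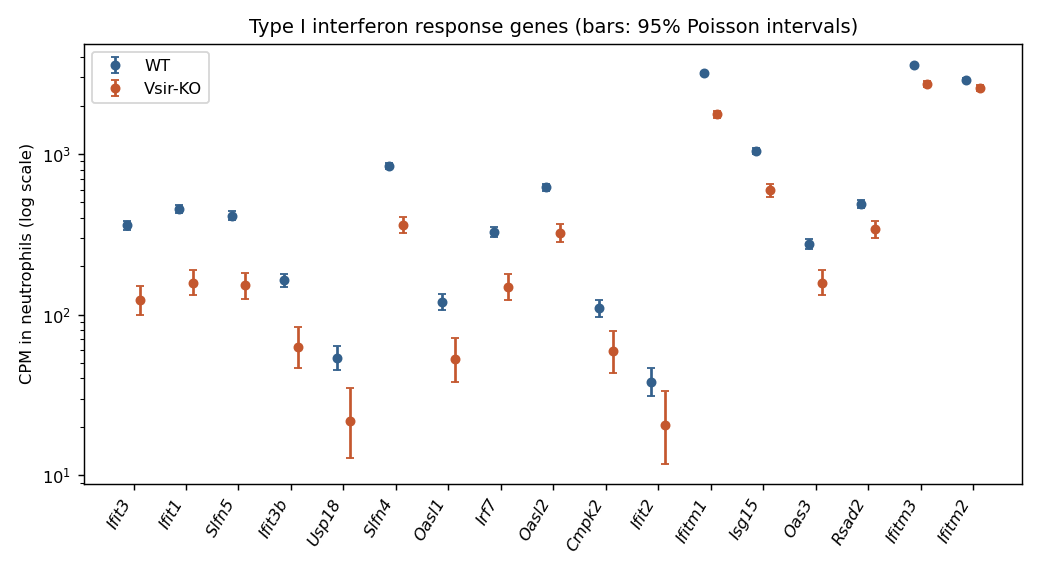
Level of the 17 type I interferon response genes in WT (blue) and Vsir-/- (orange, labelled Vsir-KO) neutrophils, in CPM on a log axis, ordered by their ratio. Bars are 95% Poisson intervals of the summed UMIs of 1 library each and cover counting error only. For each gene the WT point is the higher one, most so for Ifit3, Ifit1, and Slfn5.

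The promoters of these genes are shown because many of the list share a short sequence that interferon-activated transcription factors are known to bind. The motif searched was GAAANNGAAA on both strands in the 250 bases before the annotated start, in RefSeq promoters of build GRCm38.p6. It was found in 8 of 17 promoters of the type I interferon list (47.1%), which stand for 16 of the 17 genes, in 10 of 19 promoters of the interferon-γ list (52.6%), in 0 of 8 promoters of the specific granule list, and in 978 of all 32851 promoters (2.98%). Of the 7 matched genes that were at least 2-fold lower, 4 held it. In the following stretches of 120 bases, given 5′ to 3′ on the strand of the gene, capitals mark the motif on either strand. Ifit1 (chr19:34640769-34640888, plus strand) and Isg15 (chr4:156200819-156200938, minus strand) are shown up to the base before the start, and Ifit3 (chr19:34583347-34583466, plus strand) up to base −63.
Ifit1: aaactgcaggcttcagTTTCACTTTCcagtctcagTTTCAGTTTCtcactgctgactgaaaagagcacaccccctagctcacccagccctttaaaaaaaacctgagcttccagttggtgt
Ifit3: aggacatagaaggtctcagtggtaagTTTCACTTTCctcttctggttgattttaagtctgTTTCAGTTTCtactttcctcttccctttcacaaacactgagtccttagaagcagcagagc
Isg15: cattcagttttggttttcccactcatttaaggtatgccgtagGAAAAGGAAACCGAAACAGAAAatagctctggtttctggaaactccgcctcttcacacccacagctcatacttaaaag
Ifit1 and Ifit3 each held 2 matches, and Isg15 held 3 that overlap. A match describes the letters and is no evidence that a factor was bound in these cells.

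Genes of the interferon-γ response were less uniform. Of 18 tested, 13 had a ratio below 0 (53.5% of all genes did), 4 were at least 2-fold lower (9.91% of all genes), 1 was at least 2-fold higher (9.7% of all genes), and the median was −0.35. The guanylate-binding protein genes Gbp2 (316 and 121 CPM, ratio −1.38) and Gbp5 (89 and 11 UMIs), the signaling inhibitor Socs3 (237 and 102 CPM, −1.22), and Irgm1 (96.3 and 47.6 CPM) were lower, although Gbp5 and Irgm1 missed 2-fold under some alternatives, at up to −0.92 and −0.51. Iigp1 was higher on 26 and 17 UMIs. The MHC class I genes H2-K1 (1296 and 1220 CPM) and H2-D1 (2878 and 2983 CPM) and B2m (1944 and 1960 CPM) had ratios between −0.09 and 0.05.

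The lower type I interferon median of neutrophils was not found in every cluster. The same list had a median of −0.95 in M2-like R2 macrophages, −0.75 in other R2 macrophages, −0.27 in NK cells, −0.08 in R1 macrophages, and 0.66 in B cells, and 0.24 over all cells outside the cluster together. Summed over the list, neutrophils had 14957 CPM in WT and 9638 CPM in Vsir-/- mice, and M2-like R2 macrophages 10782 and 7747 CPM. The sum was not lower in Vsir-/- mice in the other clusters named, with 6221 and 6590 CPM in other R2 macrophages. The differences between clusters were not tested. Ifit1 had 453 and 158 CPM in WT and Vsir-/- neutrophils, 97.9 and 31.6 CPM in M2-like R2 macrophages, and 57.6 and 47.5 CPM in R1 macrophages. In B cells it had 15.8 and 26.7 CPM, on 55 and 14 UMIs. The B cell cluster itself differed between the libraries: 6 of its 7 B cell genes were at least 2-fold lower in Vsir-/- mice, as were 1379 of all 9071 genes tested there. The medians of the macrophage, kidney tubule, and endothelium lists in this cluster were 4.56, 9.17, and 10.2. Their part in the value of 0.66 was not tested.

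**Figure D4:**
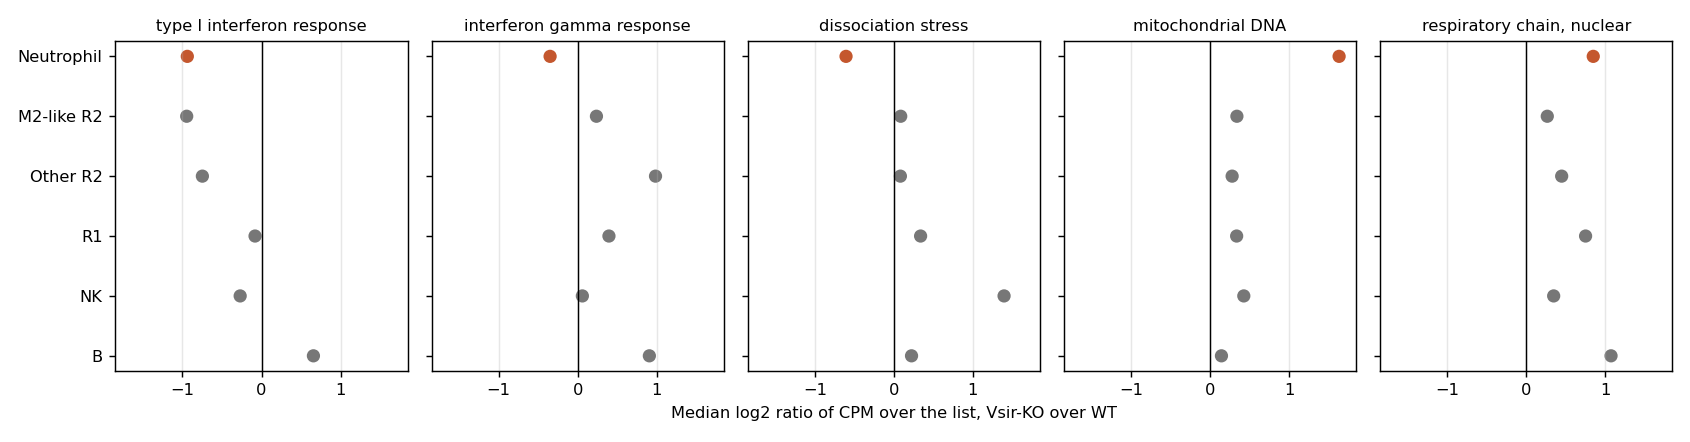
Median log2 ratio of CPM (Vsir-/- over WT) of 5 gene lists in neutrophils (orange) and 5 other clusters (grey), with 1 library per genotype behind each point. The type I interferon median of neutrophils (−0.94) lies beside that of M2-like R2 macrophages (−0.95), and the mitochondrial median of neutrophils (1.63) lies to the right of the other 5 clusters.

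Transcription factors of the lineage had a median of −0.29 over 10 tested genes, or −0.08 without the cells with 10 UMIs of another cell list. None of these genes passed 2-fold, where 9.7% of all genes were higher and 9.91% lower. Spi1, the gene of PU.1, had 806 and 764 CPM (ratio −0.08, interval −0.21 to 0.06), Cebpb 3001 and 2546 CPM, and Runx1 68.5 and 34.7 CPM. Cebpe, which directs specific granule genes, had 31.8 CPM in WT (interval 25.2–39.7) and 60.5 CPM in Vsir-/- neutrophils (interval 44.4–80.4). Genes of survival had a median of −0.03 over 8 genes, which turned to 0.48 without the cells with 10 UMIs of another cell list. None of these 8 passed 2-fold, against the same 9.7% and 9.91% of all genes. Mcl1, on which neutrophil survival depends, had 2013 and 1646 CPM. Cell cycle transcripts summed to 83.0 and 97.8 CPM, and 2 of 6 genes had enough UMIs to be tested.

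Neutrophils rely on glycolysis and hold few mitochondria. The 18 glycolysis and hypoxia genes had a median of −0.12, with 2 at least 2-fold lower, near the 9.91% of all genes (Egln3, on 42 and 3 UMIs, and Pfkfb3, on 74 and 11 UMIs). In contrast, 12 of the 13 genes encoded by mitochondrial DNA were at least 2-fold higher in Vsir-/- neutrophils against 9.7% of all genes, with a median of 1.63 and a sum of 9890 CPM in WT and 23402 CPM in Vsir-/- mice. mt-Nd4, a subunit of complex I, had 497 and 1930 CPM and mt-Cytb 759 and 2354 CPM, whereas mt-Co1 had 2995 and 4354 CPM. The median of the list reached from 0.14 to 0.43 in the 5 other clusters. Nuclear genes of the respiratory chain had a median of 0.85 over 52 genes, of which 50 lay above 0 (46.5% of all genes did) and 17 passed 2-fold (9.7% of all genes), and 1 of these (Ndufb1-ps) had no UMI in the whole WT library. Their median was 1.07 in B cells, and the other 4 clusters ranged from 0.27 to 0.75. Kidney tubule transcripts, from cells rich in mitochondria, were also higher in Vsir-/- neutrophils, with a median of 8.22. That median was 5.91 (R1 macrophages) to 9.24 (NK cells) in the 5 other clusters, and the part of these transcripts was not tested. Without the cells that held at least 10 UMIs of another cell list, the medians were 2.60 for mitochondrial DNA and 0.93 for the nuclear genes.

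Immediate early and heat shock genes, which dissociation of tissue is known to induce, had a median of −0.61 over 15 genes, 13 of them below 0 (53.5% of all genes were) and 2 at least 2-fold lower, near the 9.91% of all genes. Egr1 had 237 CPM in WT (interval 218–257) and 42.5 CPM in Vsir-/- neutrophils (interval 29.2–59.6), and Dusp1 had 2120 and 1040 CPM, which was short of 2-fold under some alternatives. Fos had 1663 and 1001 CPM, while Atf3 had 126 and 158 CPM. The same median was at 0.08 to 1.39 in the other clusters. This list moved with Il1b and Cxcl2, which are themselves inducible, and its part in them was not tested.

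Granule transcripts varied widely between neutrophils. A small number of cells carried much of the specific granule RNA, and a limit of 5% of UMIs, chosen after the values were seen, separated 28 of 524 neutrophils in WT mice (5.34%, interval 3.58–7.63%) and 15 of 158 in Vsir-/- mice (9.49%, interval 5.41–15.2%). These cells held 56.6% and 71.8% of the specific granule UMIs, and 9 and 4 cells lay within 1 percentage point of the limit. They were deep, with medians of 10656 UMIs against 3494.5 in the other WT cells and 9918 against 3917 in the other Vsir-/- cells. Thinning to 1000 UMIs left 503 WT and 153 Vsir-/- cells deep enough, and 5.57% and 9.80% of these were at or above the limit after thinning.

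By construction these cells were high in Ngp, Camp, and Ltf, but they also differed in genes that the limit did not use. Cebpe had 155 CPM in the granule-rich WT cells and 16.3 CPM in the others, and 248 and 15.9 CPM in Vsir-/- mice. Il1b had 195 CPM in the granule-rich WT cells and 7219 CPM in the others, and 670.5 and 5251 CPM in Vsir-/- mice. Csf3r followed the same order, with 159 and 1206 CPM in WT and 87.2 and 911 CPM in Vsir-/- mice, and so did Cxcr2 (340 and 1039 CPM in WT, 201 and 766 CPM in Vsir-/- mice). Ifit1 had 86.7 CPM in the granule-rich and 499 CPM in the other WT cells, and 33.5 and 188 CPM in Vsir-/- mice. The proliferation gene Mki67 had only 1 and 12 UMIs in WT and 1 and 2 UMIs in Vsir-/- mice, too few to compare. Csf3r, Cxcr2, and Il1b were thus lower in the granule-rich cells of both genotypes.

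**Figure D5:**
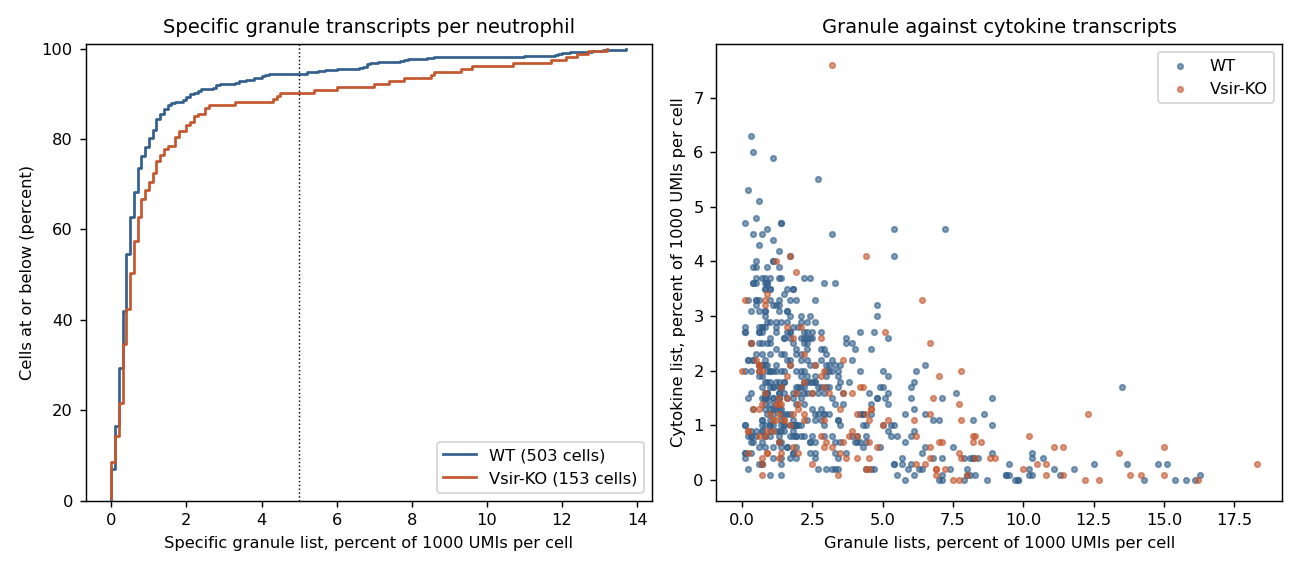
Neutrophils thinned to 1000 UMIs (503 WT cells in blue, 153 Vsir-/- cells in orange, labelled Vsir-KO). Left, the cumulative percent of cells by their share of specific granule UMIs, with a dotted line at 5%, with 5.57% of WT and 9.80% of Vsir-/- cells at or above it. Right, 1 point per cell for the share of granule UMIs (both granule lists) against that of cytokine UMIs, where cells with more granule UMIs tend to have fewer cytokine UMIs, with exceptions.

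Without the granule-rich cells, Ngp, Camp, Ltf, and Lcn2 were close in both genotypes, whereas Chil3 was lower in Vsir-/- mice, with 58.1 CPM in WT (interval 48.4–69.0) and 17.5 CPM (interval 8.75–31.3). In these other cells, Ngp had 1675 CPM in WT and 1774 CPM in Vsir-/- neutrophils, Camp 501 and 456 CPM, Ltf 252 and 223 CPM, and Lcn2 2851 and 3095 CPM, and the median of the list was 0.08. The limit was drawn on the sum of this same list, so levels of its genes on either side are in part fixed by the cut. Within the granule-rich cells, Camp had 21149 CPM in WT and 26068 CPM in Vsir-/- neutrophils, Ltf 10067 and 11412 CPM, Lcn2 13864 and 15113 CPM, and Chil3 2125 and 2501 CPM. Ngp (32379 and 33980 CPM), Cd177 (1174 and 1147 CPM), and Mmp8 (2703 and 2508 CPM) were closer, and Mmp9 (1962 and 1482 CPM) and S100a8 (208778 and 160695 CPM) were lower in Vsir-/- mice. Retnlg, which is not a specific granule gene, was higher in Vsir-/- mice in both kinds of cells, with 10052 and 15468 CPM in the granule-rich and 16286 and 24384 CPM in the other cells. The promoters of Ngp (chr9:110419688-110419807) and Ltf (chr9:111019172-111019291), both on the plus strand of GRCm38.p6 and up to the base before the start, are shown for the motif TTGCNNAA, part of the sequence that C/EBP factors are known to bind. Capitals mark the motif on either strand, and Ngp held another match at base −138 that is not shown. It was found in 4 of 8 promoters of the specific granule list, 2 of 7 of the stefin and whey acidic protein list, 1 of 19 of the interferon-γ list, 0 of 17 of the type I interferon list, and 9.56% of all promoters.
Ngp: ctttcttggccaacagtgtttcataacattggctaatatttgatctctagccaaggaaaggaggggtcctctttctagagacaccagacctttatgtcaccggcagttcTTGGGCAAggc
Ltf: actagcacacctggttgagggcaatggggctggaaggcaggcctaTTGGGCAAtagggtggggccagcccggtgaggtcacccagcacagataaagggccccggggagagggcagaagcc

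Across single neutrophils, granule and cytokine transcripts were opposed in both libraries. With every cell at 1000 UMIs, granule lists took a median of 1.9% of UMIs in WT (highest cell 16.3%) and 3.5% in Vsir-/- neutrophils (highest 18.3%), and cytokine genes took 1.6% (highest 6.3%) and 1.0% (highest 7.6%). Spearman's rho between the shares was −0.43 over 503 WT cells and −0.49 over 153 Vsir-/- cells. Type I interferon transcripts, at medians of 1.5% and 0.9% of UMIs, had a rho of −0.24 and −0.46 with granule transcripts and of 0.46 and 0.38 with cytokine transcripts. These values describe cells of 1 library each, shares of the same UMIs are bound to each other, and all the shares moved with the depth of a cell before thinning. The rho with UMIs per cell was 0.39 in WT and 0.59 in Vsir-/- neutrophils for granule, −0.47 and −0.47 for cytokine, and −0.32 and −0.43 for type I interferon transcripts. With the mitochondrial percent, the granule share had a rho of −0.03 and −0.45, the cytokine share of −0.25 and 0.11, and the interferon share of −0.29 and 0.19. The part of depth and of mitochondrial transcripts in these correlations was not tested.

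Genes that did not enter a score themselves were ranked against it by the weaker of their rho values in the 2 libraries, among 871 genes found in at least 10% of thinned cells of both. S100a8 (0.69 in WT and 0.81 in Vsir-/- mice), Wfdc21 (0.62 and 0.65), S100a9 (0.62 and 0.71), Ifitm6 (0.50 and 0.57), Anxa1 (0.44 and 0.41), which encodes annexin A1, and Ly6g (0.41 and 0.38), the classic surface marker of mouse neutrophils, went with granule transcripts. Il1b (−0.46 and −0.59), Malat1 (−0.43 and −0.69), Srgn (−0.41 and −0.52), Tnfaip2 (−0.35 and −0.52), Btg1 (−0.31 and −0.37), and Fau (−0.31 and −0.36) went against them. With cytokine transcripts went Srgn (0.55 and 0.44), the proteoglycan serglycin, the kinase Pim1 (0.44 and 0.44), Dusp1 (0.40 and 0.38), Ifitm2 (0.38 and 0.36), Mcl1 (0.36 and 0.38), and Junb (0.35 and 0.38). Ngp (−0.54 and −0.53), Camp (−0.50 and −0.52), Ifitm6 (−0.37 and −0.40), Lyz2 (−0.41 and −0.37), Lcn2 (−0.35 and −0.42), and S100a8 (−0.35 and −0.44) went against them. The ranking chose genes of 1 sign in both libraries, so that this likeness is no result. Il1b against granule transcripts and Ngp, Camp, Lcn2, and Lyz2 against cytokine transcripts restate the opposition of the scores, and Dusp1 and Junb belong to the dissociation list.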

How the data were processed

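Kidney cells were profiled in 1 library per genotype. The authors aligned the reads and counted UMIs with Cell Ranger (version 3.1.0), kept genes seen in 5 or more cells and cells with at least 200 UMIs and at most 10% mitochondrial UMIs, merged the libraries, and named the clusters in Seurat (version 3.2.3, R version 4.0.3). The submitters' processing notes name mm9, but the files hold gene symbols without coordinates. The deposited table holds raw UMI counts, which are whole numbers and were not normalized. The deposited percent of mitochondrial UMIs served only for description and for 1 alternative. Counts were summed over the neutrophils of each library and divided by all their UMIs (CPM), with exact Poisson intervals for sums, Clopper-Pearson intervals for shares, and conditional binomial intervals for ratios. Log2 ratios carry 0.5 added UMIs and need at least 20 UMIs over both libraries. The depth of 2480984 and 777011 UMIs sets these intervals, which leave out the variation between mice. Cells are not replicates, so no p-value was computed.

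Symbols of the 2 libraries were joined by RefSeq synonyms, and promoters came from RefSeq. Cells were thinned with a fixed seed. The members and the gene lists were chosen with earlier results of these data known. Named genes were the markers, Vsir, Selplg, list genes, the 12 highest and lowest ratios (at least 100 UMIs and 4 in each library, over all genes and over genes 2-fold higher in neutrophils), the most abundant genes, and the 6 genes per direction of each rho ranking. The genes given within the granule-rich cells and those given outside the cluster were chosen after their values were seen. The list genes Ms4a3, Clec7a, and Epx were not analysed here, and some items are not reported here. Alternatives changed the cells kept, depth, denominator, weighting, pseudocount, filter, centring, and symbols. The steps were tested on simulated data. Python 3.11.15, numpy 2.4.6, scipy 1.17.1, pandas 2.3.3, and matplotlib 3.10.9 were used.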

Additional observations from a re-analysis of the deposited data

Results flagged for a closer look

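Among the lists of neutrophil functions, metabolism, and dissociation (markers of other cells were not compared), 2 had a median log2 ratio of Vsir-/- over WT on opposite sides of 0 in neutrophils and in another cluster, by more than 1.5-fold on each side. The type I interferon response list had a median of −0.94 in neutrophils and 0.66 in B cells, which number 969 WT and 88 Vsir-/- cells. In that cluster, 6 of 7 B cell genes were at least 2-fold lower in Vsir-/- mice, as were 1379 of all 9071 genes tested there. The B cell list nevertheless summed to 20189 CPM in WT and 62338 CPM in Vsir-/- cells, mostly Igkc (10268 and 58896 CPM). The macrophage, kidney tubule, and endothelium medians in that cluster were 4.56, 9.17, and 10.2. The dissociation list had a median of −0.61 in neutrophils and 1.39 in NK cells, which number 594 WT and 67 Vsir-/- cells. In the NK cell cluster, the macrophage, kidney tubule, and endothelium medians were 4.62, 9.24, and 8.51. There, 5 of 6 cell cycle genes were at least 2-fold higher in Vsir-/- mice (median 2.23), as were 863 of all 8939 genes tested. With 1 library per genotype, neither difference was tested, nor was the part of these other transcripts in it.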

How the results depend on the processing

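The counts of genes past 2-fold, the list medians in neutrophils, 84 single genes and, under the alternatives that apply to them, the neutrophil shares and the rank correlation between granule and cytokine transcripts were recomputed, with 4 alternatives chosen after seeing the data (both removals of cells by 10 UMIs or by 5% granule UMIs, and both changes of symbols). Values of other clusters, of the granule-rich cells, of the motifs, and of the other genes were not recomputed. The type I interferon median stayed between −1.28 and −0.89 and the specific granule median between 0.08 and 0.65. The latter was lowest without the granule-rich cells, a removal that used the same list. Inflammatory cytokine, NF-κB, survival, NADPH oxidase, S100, and lipid mediator medians lay on both sides of 0 over the alternatives. The counts of genes at least 2-fold higher and lower were 216 and 305 of 3070 tested after thinning to 1000 UMIs. They were 122 and 194 of 3091 with at least 100 UMIs and 4111 and 1704 of 14599 with at least 1 UMI. Without cells with 10 UMIs of other cell lists, they were 459 and 389 of 5165. Without cells that held T or B cell UMIs they were 559 and 281 of 4612, so the share of higher calls went from 49.5% to 66.5%. This share was 38.6% with at least 100 UMIs and 70.7% with at least 1 UMI. Without cells that held T or B cell UMIs, the stefin and whey acidic protein median was −2.25 (−1.87 with symbols as deposited), the mitochondrial median 2.79, and S100a4 had a ratio of 1.03 in place of −1.88. The mitochondrial median was 2.26 as a mean over cells and 2.60 without cells with 10 UMIs of other cell lists. Neutrophil shares were 10.7% (WT) and 10.0% (Vsir-/-) with at most 5% mitochondrial UMIs, 8.42% and 4.75% without cells with 10 UMIs of other cell lists (which removed neutrophils alone, so that the share could only be lower), and 11.3% in Vsir-/- mice among Ptprc-positive cells. The rank correlation between granule and cytokine transcripts was between −0.50 and −0.43 in both libraries at each depth. All neutrophils already had 3 of 6 markers, so that alternative changed nothing. Of 1076 values of 84 single genes, 931 stayed within their counting interval, 144 left it, and 1 (S100a4) went from past 2-fold lower to past 2-fold higher. Chil3 also changed sign and ended past 2-fold, at −1.67 without the granule-rich cells, but its ratio of 0.78 had not been past 2-fold. The causes were not tested. No paired analysis was possible because each genotype has 1 library and no replicate numbers.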
